A study of Homo sapiens with 24 samples.

Results

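Trimethylation of histone H3 at lysine 9 (H3K9me3) and at lysine 4 (H3K4me3) were compared within unperturbed human cardiomyocytes, in the 3 H3K9me3 and the 3 H3K4me3 control libraries of a series of 24 libraries. The members were chosen by their labels, as every control library of these 2 marks, and not by any measured value. All 6 libraries came from ventricular-like cardiomyocytes at day 15 of differentiation, derived from H9, an established human embryonic stem cell line, with no ZNF436 knockdown. The other libraries of the series hold H3K4me1 and H3K27ac in the same cells and all 4 marks after knockdown of ZNF436, a zinc finger protein gene. Marks were measured by CUT&Tag, in which an antibody brings a transposase to the marked nucleosome, and the transposase cuts and tags the DNA around it. The labels give 1 cell line and a bulk population, so a region with both marks may hold them in the same cells, on different alleles or in different cells, and these cannot be told apart. Each mark has its own antibody, and values are shares of each library's own reads, so they show where a mark lies and not how much of it the cells carry.

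H3K9me3 is laid down by SETDB1 and SUV39H enzymes and bound by HP1 proteins. It marks pericentromeric heterochromatin, transposon-derived repeats and clusters of zinc finger genes, where it keeps DNA silent and is often directed by KRAB zinc finger proteins. H3K4me3 is laid down by SET1 and MLL complexes around the starts of active and poised genes, mostly at CpG islands. The enzymes and readers of the marks oppose each other at most sites, and their joint presence is known mainly from imprinted control regions, where the alleles differ.

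Reads were counted over 153244 regions of the hg19 build that are the same in every library, with a median width of 708 bp and a range of 35 to 103681 bp. The sources used here do not give how the regions were made. The total count was 2251853, 2143594 and 2748839 in the H3K9me3 libraries, against 11964862, 13933927 and 11936924 in the H3K4me3 libraries. The 100 highest regions of each library took between 29.4% and 35.4% of the reads of an H3K9me3 library, against 2.67% to 2.85% in an H3K4me3 library. Nothing in the labels tells whether replicates were separate cultures. The p-values therefore cover the spread among these libraries, and this may be technical only. Without a gene annotation of hg19, regions are named by position, counted from 1, and the markers of cardiomyocytes could not be read from H3K4me3.

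Most regions that passed the filter on low counts differed between the marks. Of 55760 regions tested, 34763 held a larger share of the H3K9me3 libraries (62.3% of those tested) and 16550 a larger share of the H3K4me3 libraries (29.7%), while 4447 were not called (7.98%), at an adjusted p under 0.05 in edgeR's quasi-likelihood test with Benjamini-Hochberg adjustment. The differences were large. The median log2 ratio of H3K9me3 over H3K4me3 was 7.64 among the regions higher in H3K9me3 and -4.89 among those higher in H3K4me3, and 34761 and 16533 of them differed by at least 1 on the log2 scale. The libraries of the marks did not overlap in 92.6% of the regions tested. Regions higher in H3K9me3 had a median width of 790 bp, those higher in H3K4me3 2387 bp, and those not called 2100 bp. The filter admits a region through the mark in which it is high, and without it 55634 and 16685 of 147730 regions, or 49.0% together, were higher in H3K9me3 and in H3K4me3. The number higher in H3K9me3 depends on how many thinly covered regions enter the test, and fell to 8713 with at least 30 reads required in 3 libraries and to 18959 with H3K4me3 thinned to the H3K9me3 depth.

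The region with the smallest p for H3K9me3 lay on chromosome 10 from 132068037 to 132091442, a block of 23406 bp. It held 659 (replicate 1), 460.4 (replicate 2) and 605 (replicate 3) CPM, which are counts scaled to the library total, in the H3K9me3 libraries, against 0.501, 0 and 0.838 CPM in the H3K4me3 libraries. The log2 ratio was 10.35 (SE 0.36, edgeR adjusted p = 6.02e-177). Every H3K9me3 library was far above every H3K4me3 library. The naming rule required every H3K9me3 library to lie above every H3K4me3 library, so the separation itself was set by the rule. The other 7 regions named by the same rule lay on chromosomes 6, 7, 8, 9, 10 and X, and their log2 ratios ran from 9.01 to 11.06. A region of 9331 bp on chromosome 7, from 56876897 to 56886227, had 278, 243 and 262 CPM of H3K9me3, against 0.167, 0.144 and 0 CPM of H3K4me3. Of these 8 regions, 4 lay within 2 Mb of the longest stretch of their chromosome without listed regions, which on most chromosomes is the centromeric gap of the build.

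On the promoter side, the smallest p belonged to a region of chromosome 8 from 74204449 to 74209354. It held 4.89, 3.27 and 0.728 CPM in the H3K9me3 libraries, against 349, 329 and 401 CPM in the H3K4me3 libraries, a log2 ratio of -6.99 (SE 0.33, edgeR adjusted p = 2.17e-95). The widest of the 8 regions named for H3K4me3, 15339 bp on chromosome 7 from 5456233 to 5471571, held 6.22, 8.40 and 1.46 CPM of H3K9me3, against 459, 474 and 444 CPM of H3K4me3. Log2 ratios of these 8 ran from -7.43 to -6.32. All 8 had reads of the silent mark in at least 2 of 3 libraries, between 1.42 and 5.36 CPM on average, and all 8 carried H3K27ac, at 71.3 to 378 CPM. The H3K9me3 mean of the chromosome 8 region had an SD of 2.10 CPM around 2.96, while a region of chromosome 22 from 41839628 to 41845310 had 1.94 ± 0.214 CPM of H3K9me3, so the spread at these low levels differed from region to region.

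To ask where both marks are present, a mark was taken as present in a region where its mean log2 value over the 3 libraries, of CPM per kb plus 0.01, ranked in the top 20% of all regions. This gave 30649 regions for each mark. The cut lay at 7.28 CPM per kb for H3K9me3 and at 0.467 CPM per kb for H3K4me3, against a mean density of 5.72 CPM per kb over all listed regions. The 100 regions just inside the H3K9me3 cut averaged 7.29 CPM per kb and the 100 just outside 7.26, and for H3K4me3 these values were 0.469 and 0.466. Just inside the cut, regions had a median of 23.5 H3K9me3 reads or 19 H3K4me3 reads, each summed over 3 libraries, so presence at the cut rests on few reads for either mark.

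By this rule 538 regions carried both marks, 0.351% of the list. H3K9me3 alone marked 30111 regions, H3K4me3 alone 30111, and 92484 carried neither. A region with either mark carried the other in 1.76% of cases, where 20% of all regions carried it. Regions with H3K9me3 alone had no H3K4me3 read in any of 3 libraries in 46.9% of cases, although these libraries are deeper. Regions with H3K4me3 alone had no H3K9me3 read in 9.20% of cases. On CPM not divided by width, the same top 20% gave 3413 regions with both marks, so the degree of exclusion depends on this scaling. These shares describe the chosen cuts and were not tested.

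The reads were less evenly split than the regions. Regions with both marks took 24.2%, 25.9% and 28.9% of the H3K9me3 reads, although they hold 0.654% of the listed bases. Regions with H3K9me3 alone took 58.7 ± 2.53% of the H3K9me3 reads (SD, n = 3), those with H3K4me3 alone 5.04 ± 1.23%, and those with neither 9.90 ± 0.885%. For H3K4me3, the regions with both marks took 0.487 ± 0.0717% of the reads, those with H3K9me3 alone 0.255 ± 0.0882%, those with H3K4me3 alone 97.8 ± 0.237% and those with neither 1.44 ± 0.0871%. Each mark's regions were cut on its own density in these same libraries, and only reads in listed regions count. A high share of a mark's reads in its own regions thus follows in part from the cut. The 40 regions with both marks among the 100 with the highest mean CPM over both marks carry most of the H3K9me3 reads of their class, with a summed 227896, 244614 and 276732 CPM of H3K9me3, against 1074, 1607 and 2450 CPM of H3K4me3.

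**Figure D1:**
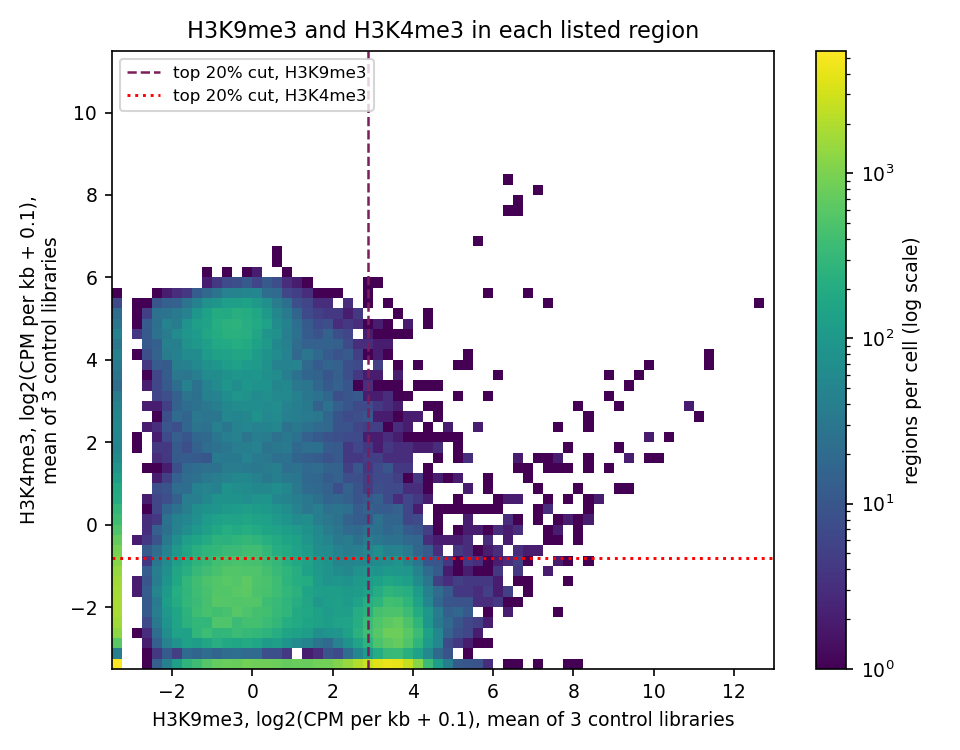
Density of the 153244 listed regions by H3K9me3 (horizontal) and H3K4me3 (vertical), each as log2 of the mean CPM per kb of 3 control libraries with 0.1 added, with the number of regions per cell on a log colour scale. The regions form an H3K4me3 group at the upper left and an H3K9me3 group at the lower right of the cuts. Few lie beyond both cuts; these are not exactly the 538 regions with both marks, which were set on a mean of log2 values, and cells along the left and bottom edges hold regions with no or nearly no reads of a mark.

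Across all regions the marks ran against each other. Spearman's rank correlation between an H3K9me3 and an H3K4me3 library lay between -0.275 and -0.200 over the 9 pairs and 153244 regions, while pairs of H3K9me3 libraries gave 0.642 to 0.668 and pairs of H3K4me3 libraries 0.598 to 0.646. These are descriptions over regions, which share libraries and are not independent. The opposition depended on width. The rank correlation of the mean levels was -0.298 over 52575 regions under 500 bp, -0.215 over 46158 of 500 to under 1000 bp and -0.319 over 31328 of 1000 to under 2000 bp. It was -0.444 over 20534 of 2000 to under 5000 bp, -0.644 over 2271 of 5000 to under 10000 bp and -0.411 over 378 of 10000 bp and over. Narrow regions also hold fewer reads, and the part of depth in this order was not tested.

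The opposition was graded on the H3K4me3 axis. In regions ranked below the median of H3K4me3, 32.8 ± 0.551% carried H3K9me3 in a given library (SD, n = 3). From the 50th to the 80th percentile this was 10.6 ± 0.522%, from the 80th to the 90th 3.55 ± 0.996%, from the 90th to the 95th 1.42 ± 0.431%, from the 95th to the 99th 0.315 ± 0.0821%, and in the top 1% 0.696 ± 0.164%. The decline was present in each library up to the 99th percentile, and the top 1% lay above the bin before it in every library. On the H3K9me3 axis the order was not graded. The share of regions with H3K4me3 was 21.6 ± 0.141% below the median of H3K9me3 and 29.0 ± 0.208% from the 50th to the 80th percentile. It then dropped to 2.35 ± 0.627% from the 80th to the 90th, 1.88 ± 0.456% from the 90th to the 95th and 2.15 ± 0.605% from the 95th to the 99th. In the top 1% of H3K9me3 it was 8.02%, 11% and 13.4% in H3K4me3 replicates 1, 2 and 3, above the neighbouring bin in all 3 libraries.

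Width separated the marks. H3K9me3 reads were spread over all widths, while H3K4me3 was concentrated in regions of 2000 to under 5000 bp, the size of a promoter with its flanking nucleosomes. Regions of that width took 25.2%, 24.4% and 23.5% of H3K9me3 reads, against 71.8%, 72.0% and 71.6% of H3K4me3 reads. At both ends the order was the opposite. Regions under 500 bp held 8.49 ± 0.457% of H3K9me3 and 0.405 ± 0.0240% of H3K4me3 reads, and regions of 10000 bp and over held 21.2 ± 1.81% and 1.74 ± 0.0875%. Regions of 500 to under 1000 bp held 9.92 ± 0.570% and 1.44 ± 0.0220%, those of 1000 to under 2000 bp 14.7 ± 0.824% and 11.9 ± 0.175%, and those of 5000 to under 10000 bp 21.3 ± 0.785% and 12.7 ± 0.175%, in H3K9me3 and H3K4me3 libraries in that order. In all 6 width classes the libraries of the marks did not overlap, which gives p = 0.1 in a two-sided exact permutation test, the smallest that 3 against 3 libraries allow.

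The excess of H3K9me3 in wide regions rested mostly on these 100 highest regions, of which 55 lay within 2 Mb of their chromosome's longest stretch without listed regions. Without them, regions of 10000 bp and over held 6.49 ± 0.373% of H3K9me3 and 1.59 ± 0.0587% of H3K4me3 reads, and regions of 5000 to under 10000 bp held 13.4 ± 0.482% and 12.7 ± 0.145%. The difference at 5000 to under 10000 bp was then 0.703 percentage points, against 8.59 with them. At 1000 to under 2000 bp it was 9.35 without them, against 2.79 with them. Counted as regions, 63.5% of those of 10000 bp and over carried H3K9me3 alone, 29.1% H3K4me3 alone and 5.29% both. Only 4 of those 20 wide regions with both marks remained without the 100 highest.

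**Figure D2:**
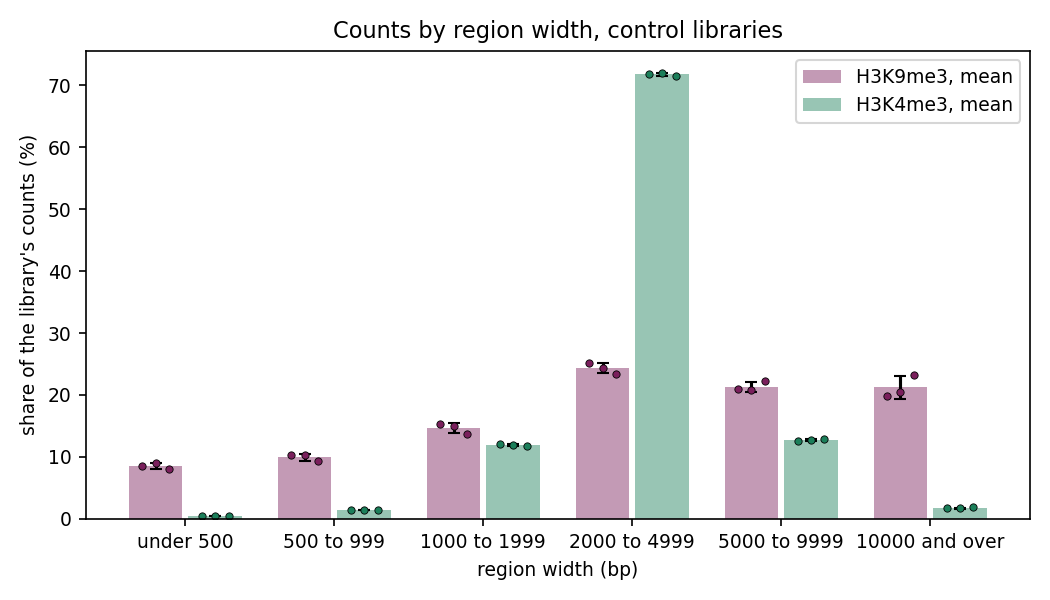
Share of each control library's reads (vertical axis, percent) by region width (horizontal axis, bp) for H3K9me3, left bars, and H3K4me3, right bars. Bars are means of 3 libraries, error bars are SD and points are libraries; H3K4me3 reaches 71.8% at 2000 to under 5000 bp, where H3K9me3 holds 24.3%.

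The widest region of H3K9me3 alone, 103681 bp on chromosome 21 from 10771924 to 10875604, held 2412, 2871 and 3496 CPM of H3K9me3, against 5.52, 11.3 and 12.8 CPM of H3K4me3. The widest region of H3K4me3 alone, 26283 bp on chromosome 16 from 75267092 to 75293374, held 14.2, 32.2 and 12.7 CPM of H3K9me3, against 120.4, 132 and 106 CPM of H3K4me3. Per kb it held 18.2 ± 0.872 CPM of H3K4me1, against 1.39 to 3.17 CPM per kb in the 8 regions named for H3K4me3. Its H3K27ac, 24.4 ± 1.55 CPM per kb, lay within their range of 15.6 to 27.6. The widest region with both marks, 55001 bp on chromosome 10 from 42354936 to 42409936, adjoins the longest stretch without listed regions and held 14646, 17382 and 21534 CPM of H3K9me3, against 19.1, 46.9 and 87.2 CPM of H3K4me3.

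The marks also kept apart along the chromosome. Among regions without H3K4me3, 6.51 ± 0.819% carried H3K9me3 where the nearest region with H3K4me3 lay under 2 kb away. This was 15.1 ± 0.972% at 5 to 10 kb, 21.8 ± 0.652% at 20 to 50 kb and 35.1 ± 1.71% beyond 100 kb. Among regions without H3K9me3, 8.27 ± 0.501% carried H3K4me3 under 2 kb from the nearest region with H3K9me3, 19.4 ± 0.108% at 5 to 10 kb, 24.0 ± 0.150% at 20 to 50 kb and 28.5 ± 0.354% beyond 100 kb. Both curves climbed in each of their 3 libraries. From 50 to 100 kb to beyond 100 kb, H3K9me3 rose from 25.6% to 35.1% and H3K4me3 from 25.1% to 28.5%. The last bin is open, so nothing is read about the course past 100 kb. Regions with H3K9me3 alone had a median distance of 92.3 kb to the next region with H3K4me3 and of 4.68 kb to the next with H3K9me3. Regions with H3K4me3 alone lay a median of 84.8 kb from the next with H3K9me3 and 5.20 kb from the next with H3K4me3. How the listed regions were placed bears on all these distances and was not tested.

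**Figure D3:**
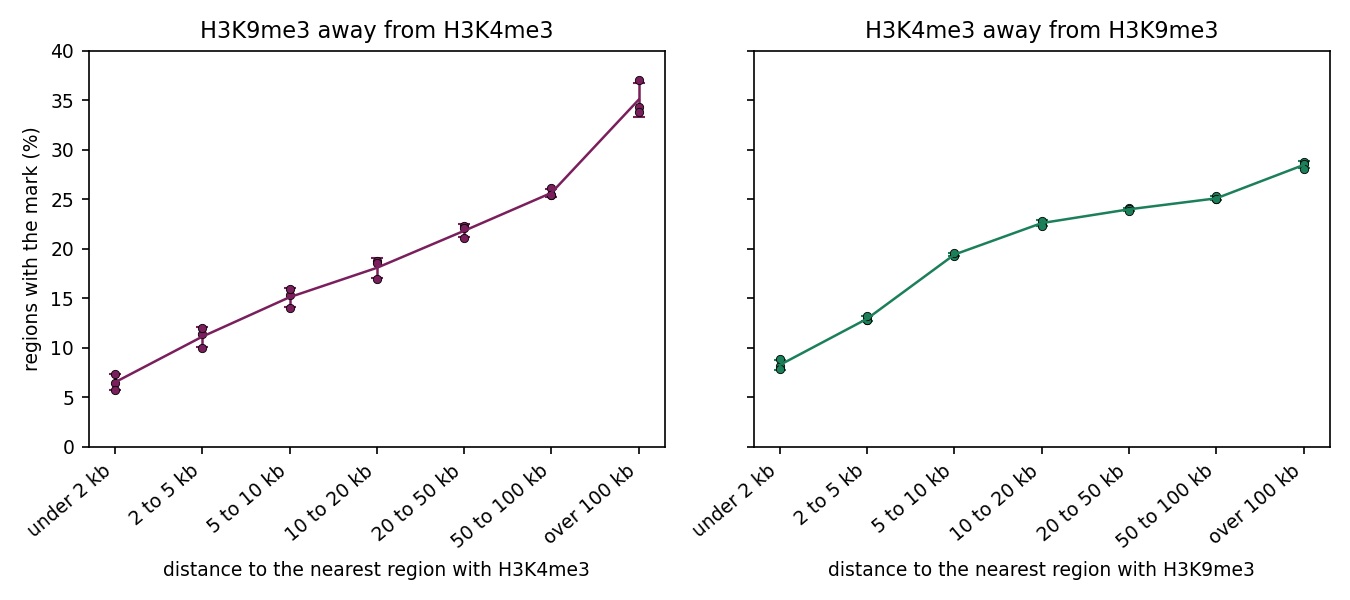
Share of regions carrying H3K9me3 by distance to the nearest region with H3K4me3 (left) and carrying H3K4me3 by distance to the nearest region with H3K9me3 (right); horizontal axes in kb, vertical axes in percent. Points are 3 libraries, lines their mean and error bars SD; the shares climb to 35.1% for H3K9me3 and 28.5% for H3K4me3 beyond 100 kb.

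Neighbours within 10 kb were mostly alike. The neighbours of a region with both marks had H3K9me3 alone in 36.8% of pairs, H3K4me3 alone in 25.1% and both marks in 7.51%. Among all neighbours these shares were 19.5%, 20.2% and 0.359%. Neighbours of a region with H3K9me3 alone had the same class in 57.4% of pairs and H3K4me3 alone in 4.2%, and neighbours of a region with H3K4me3 alone had the same class in 54.5% and H3K9me3 alone in 4.07%. Regions with both marks thus lay next to either kind, and H3K9me3 alone stood further above its share among all neighbours than H3K4me3 alone. Their median distance was 10.2 kb to the next region with H3K9me3 and 20.3 kb to the next with H3K4me3.

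Regions higher in H3K9me3 formed 10153 runs, where a run is a stretch of them with gaps of at most 100 kb and no region higher in H3K4me3 between. Runs of at least 5 regions numbered 1710 and held 55.6% of the regions higher in H3K9me3. The longest spanned 2.25 Mb of chromosome 11, from 48199649 to 50454134, with 223 such regions. It held 2571, 2482 and 2926 CPM of H3K9me3, against 8.52, 9.19 and 14.3 CPM of H3K4me3, and contained no region with H3K4me3. The run with the most regions, 280 over 1.86 Mb of chromosome 7 from 56183658 to 58039146, held 5687, 5561 and 6327 CPM of H3K9me3, against 11.3, 19 and 37.0 CPM of H3K4me3. Runs of 1.75 Mb on chromosome 14, from 19000029 to 20748846, and of 1.31 Mb on chromosome 8, from 46839901 to 48152688, began at the end of their chromosome's longest stretch without listed regions.

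The fifth run lay away from any such stretch, 70.8 Mb from the longest one of chromosome 1. It reached from 49409583 to 50704833, held 167 regions higher in H3K9me3 over 1.30 Mb, and carried 1909, 1847 and 2039 CPM of H3K9me3, against 3.34, 6.53 and 12.3 CPM of H3K4me3. Of its 255 listed regions, 1 carried H3K4me3, and that region carried both marks. No region with both marks lay at the edges of any of these 5 runs. Runs were drawn so as to contain no region higher in H3K4me3, so nothing is read from the low level of the promoter mark inside them.

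The chromosomes took unequal shares of the marks. All 23 chromosomes tested (100.0%) were called in edgeR's quasi-likelihood test on summed counts, 10 with a larger share of H3K9me3 and 13 with a larger share of H3K4me3, and the shares of a library sum to its whole, so the chromosomes are not independent of each other. Chromosome 21 stood highest, with 2.43%, 2.46% and 2.57% of H3K9me3 reads, against 1.00%, 0.993% and 0.991% of H3K4me3 reads, a log2 ratio of 1.32 (SE 0.04, edgeR adjusted p = 4.77e-11). Chromosome 22 stood lowest, with 0.977%, 0.970% and 0.869% of H3K9me3 reads, against 2.08%, 2.08% and 1.99% of H3K4me3 reads, a log2 ratio of -1.13 (SE 0.05, edgeR adjusted p = 6.94e-10). Chromosomes 18 and 4 followed chromosome 21, at 1.22 and 0.70, and chromosomes 17 and 20 stood next to chromosome 22, at -1.04 and -0.96. Chromosomes 21 and 22 were thus at opposite ends.

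These ratios depended on the highest regions. Without the 100 highest regions by mean CPM over both marks, chromosome 18 had a log2 ratio of 0.22, chromosome 21 of 1.08 and chromosome 22 of -0.58. Chromosome 17 was at -1.08 and became the lowest. The direction turned for 5 chromosomes, to -0.33 on chromosome 1 (0.13 with all regions), 0.24 on 5 (-0.21), 0.35 on 13 (-0.20), 0.09 on 14 (-0.34) and -0.10 on 19 (0.09). The place of 0 depends on the scaling. TMM raised the log2 ratio of each of the 23 chromosomes by nearly the same amount, 0.53, so the signs and calls given here hold for shares of library totals. With TMM chromosome 21 stood at 1.85, chromosome 17 at -0.51 and chromosome 22 at -0.59, and chromosomes 17 and 22 were then not called (edgeR adjusted p = 0.18 and 0.093).

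Within every chromosome the marks ran against each other at the scale of regions and with each other at the scale of 1 Mb. Spearman's rank correlation over the 2019 to 13522 regions of a chromosome was below 0 on all 23 chromosomes, from -0.459 on chromosome 19 to -0.046 on chromosome 17. Over windows of 1 Mb, with the 100 highest regions left out and counts summed, the rank correlation was above 0 on all 23, with a median of 0.204, and windows with more listed regions hold more reads of either mark. These are descriptions over regions and windows. Reading along a chromosome, the call changed between H3K9me3 and H3K4me3 in a median of 24.2 of 100 consecutive called pairs.

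Chromosome 19, known for its clusters of zinc finger genes and its high gene density, held large shares of both marks and few changes between them. H3K9me3 alone marked 27% of its regions, the largest share of the 23 chromosomes, and H3K4me3 alone 34.1%, the next to largest after chromosome 17 at 35.9%. Its marks had the strongest opposition over regions, the lowest rank correlation over 1 Mb, 0.01, and the fewest changes of call, 16.8 of 100 pairs. Its 2 marks came in stretches of their own kind more than on any other chromosome, by this count. Chromosome 17 was its counterpart, with H3K9me3 alone in 10.1% of regions, the smallest share.

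Chromosome X held the most regions with both marks. Of the 538, 66 lay there, and 7.18% of its regions with H3K4me3 carried H3K9me3. H3K9me3 alone marked 25% of its regions and H3K4me3 alone 12.9%, the smallest share of the 23 chromosomes. It took 3.04 ± 0.0642% of H3K9me3 reads and 2.32 ± 0.0363% of H3K4me3 reads, a log2 ratio of 0.39 (SE 0.04, edgeR adjusted p = 9.65e-07), and 0.85 without the 100 highest regions.

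H3K9me3 was compared at regions with H3K4me3 above the mean density of the list, 520 on chromosome X and 14306 on the autosomes, chosen by H3K4me3 alone. Their median H3K9me3 was 1.97, 2.28 and 2.13 CPM per kb on chromosome X in the 3 libraries, against 0.574, 0.765 and 0.466 CPM per kb on the autosomes. The mean on chromosome X was 3.54-fold higher, and chromosome X stood above the autosomes in each of the 3 libraries. Both medians come from the same 3 libraries, so a permutation test of 3 against 3 does not apply and the difference was not tested. No single autosome came near. Their means ran from 0.523 to 0.791 CPM per kb, the highest on chromosome 19, and the highest value of any autosome in any library was 0.926. H3K9me3 exceeded the mean density in 38 of the 520 regions of chromosome X, or 7.31%, while the autosomes had 0% to 1.89%. The H3K4me3 at these regions was 15.3 ± 0.199 CPM per kb on chromosome X and 21.3 ± 0.305 CPM per kb on the autosomes.

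Other classes of region on chromosome X are given by their values. In regions with neither mark, the median H3K9me3 was 1.74, 2.11 and 2.20 CPM per kb on chromosome X, against 0, 0.530 and 0.161 CPM per kb on the autosomes. The mean on chromosome X was 8.77-fold higher there, over autosomal values near 0, so the excess was not limited to regions with H3K4me3. In regions with H3K9me3 alone the median was 11 ± 0.139 CPM per kb on chromosome X and 11.9 ± 0.605 CPM per kb on the autosomes. Both classes were cut on H3K9me3 itself, which limits how far their medians can differ, and these medians were not used as a test. The H3K9me3 libraries of ZNF436 knockdown cells, which this choice of regions did not use, gave 2.3 ± 0.219 CPM per kb on chromosome X and 0.840 ± 0.0954 CPM per kb on the autosomes at the regions with H3K4me3.

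**Figure D4:**
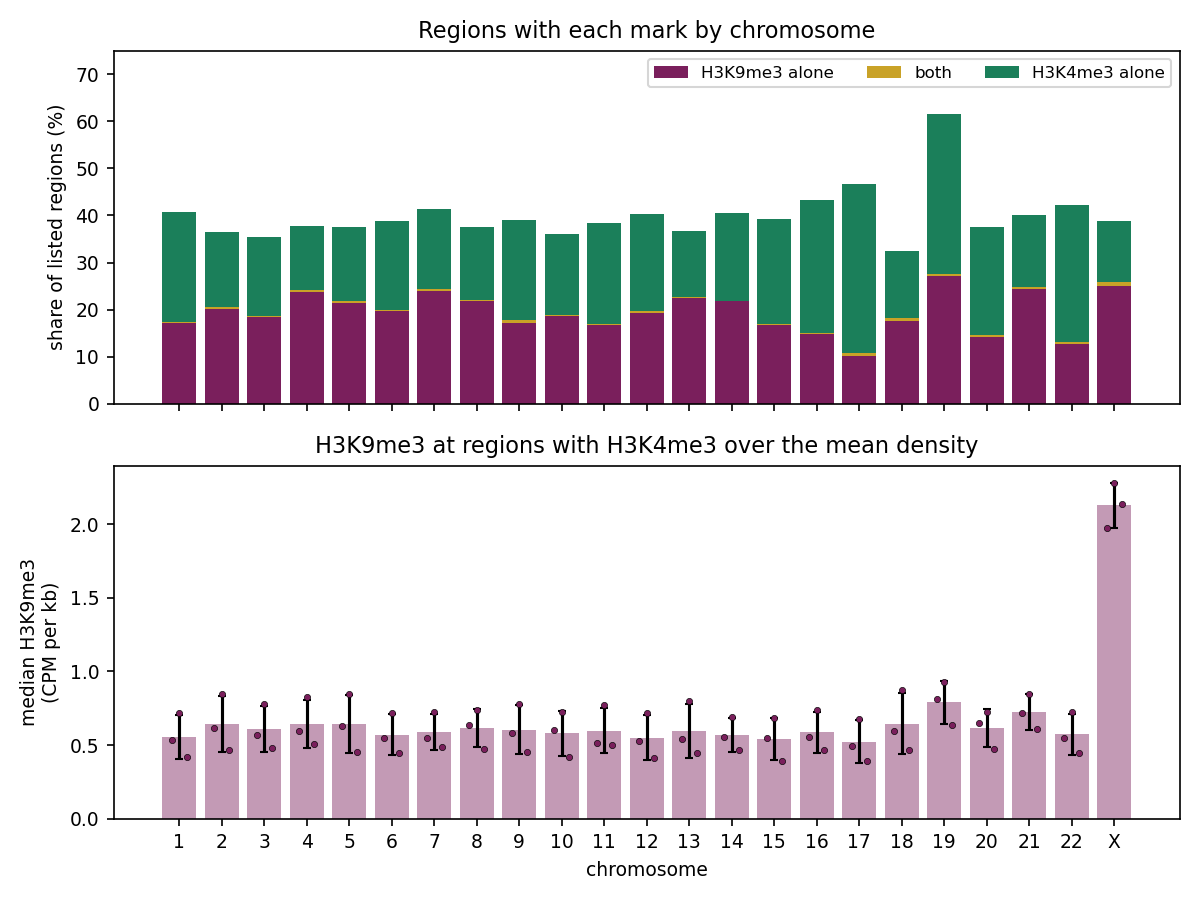
Top: share of each chromosome's listed regions (percent) with H3K9me3 alone, both marks and H3K4me3 alone. Bottom: median H3K9me3 (CPM per kb) at regions whose H3K4me3 exceeds the mean density, with bars as the mean of 3 control libraries, error bars as SD and points as libraries; chromosome X stands at 2.13 and the highest autosome, 19, at 0.791.

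Regions with both marks were of several kinds. By edgeR's test with Benjamini-Hochberg adjustment, 434 of the 538 were higher in H3K9me3, 30 higher in H3K4me3, 44 were not called and 30 were not tested, beside 62.3%, 29.7% and 7.98% of all regions tested. The rule used the levels of both marks, so nothing is read from these counts. Their median density was 13 CPM per kb of H3K9me3 and 1.39 CPM per kb of H3K4me3, an order that the unequal cuts for presence favour. Their median width was 703.5 bp, against 671 bp for H3K9me3 alone and 1715 bp for H3K4me3 alone.

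A first kind were 68 regions with more than 100 CPM per kb of H3K9me3, of which 22 lay within 2 Mb of their chromosome's longest stretch without listed regions. Of these 68, 63 were in the top 20% of regions by H3K27ac and 38 by H3K4me1, marks the rule did not use, whereas 0.501% of regions with H3K9me3 alone were in the top 20% by H3K27ac. Most of them were thus high in H3K27ac as well. Their H3K4me3 was uneven between libraries, with a median ratio of the highest to the lowest library of 2.66 and the lowest value in replicate 1 for 51 of the 68. Their H3K9me3 was more even, with a median ratio of 1.33. In the knockdown libraries 65 of the 68 again carried both marks. The sources used here do not give whether reads that fit several copies of a repeat were kept, and its part in these values was not tested.

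The clearest of this kind was the region of chromosome 1 from 121478309 to 121485434, which adjoins the centromeric stretch. It held 92364, 94692 and 130752 reads in the H3K9me3 libraries, the highest count of each. In CPM the H3K9me3 libraries had a mean of 44253 ± 3275 and the H3K4me3 libraries 297 ± 187 (SD, n = 3 each), with 125, 272 and 496 in H3K4me3 replicates 1, 2 and 3. H3K27ac stood at 5282 ± 1960.4 CPM and H3K4me1 at 2125 ± 857 CPM. H3K9me3 was even between libraries here, and the other marks were not.

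A second kind were very narrow. Of the 12 regions that ranked highest in both marks at once, 5 were 40 to 51 bp wide and 1 was 153 bp wide. The region of 51 bp on chromosome 15, from 41718876 to 41718926, held 6.22, 12.1 and 3.64 CPM of H3K9me3, against 16.0, 14.8 and 13.7 CPM of H3K4me3, beside 7.62 ± 0.821 CPM of H3K27ac and 3.59 ± 0.631 CPM of H3K4me1. Division by so small a width turns a few CPM into a high density. On CPM not divided by width 3413 regions carried both marks, of which 345 were among the 538. Without regions under 100 bp 525 remained.

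Comparable amounts of both marks were looked for with another rule, under which 168 regions had both marks above the mean density of the list, 94 of them among the 538. Of the 168, 28 were higher in H3K9me3, 60 higher in H3K4me3, 77 were not called and 3 were not tested, and 38 of the 168 lay on chromosome X. The region of 1988 bp on chromosome 17, from 45265395 to 45267382, held 109.7, 119 and 117 CPM of H3K9me3, against 92.2, 90.4 and 89.2 CPM of H3K4me3. The log2 ratio was 0.35 (SE 0.20, edgeR adjusted p = 0.0854) and was not called, and both marks were even between libraries. The region of 2679 bp on chromosome 8, from 82752735 to 82755413, held 53.7, 57.4 and 53.1 CPM of H3K9me3, against 78.9, 68.2 and 78.8 CPM of H3K4me3, a log2 ratio of -0.46 (SE 0.21, edgeR adjusted p = 0.0324).

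On chromosome 17, from 41465564 to 41467211, the balance was tilted the other way. The H3K9me3 libraries held 235, 160.5 and 164 CPM, against 79.98, 71.1 and 81.3 CPM in the H3K4me3 libraries, a log2 ratio of 1.27 (SE 0.20, edgeR adjusted p = 1.66e-10). The region of 431 bp on chromosome 2, from 33141262 to 33141692, had 30.2, 31.3 and 39.7 CPM of H3K9me3, against 87.8, 89.6 and 87.1 CPM of H3K4me3, a log2 ratio of -1.38 (SE 0.23, edgeR adjusted p = 1.29e-09). Both regions were also marked by H3K27ac, at 101 ± 11.8 CPM and 44.9 ± 7.95 CPM.

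Further regions of at least 1 kb with near-equal marks were picked after their values were seen. A region on chromosome 19, from 56914714 to 56916753, held 25.3, 36.9 and 33.8 CPM of H3K9me3, against 48.1, 49.4 and 45.6 CPM of H3K4me3. It was called higher in H3K4me3, with a log2 ratio of -0.58 (SE 0.25, edgeR adjusted p = 0.0226), and had little H3K27ac, 8.68 ± 2.29 CPM. On chromosome 5, from 150283814 to 150286867, H3K9me3 held 35.5, 33.6 and 31.3 CPM, against 22.1, 24.9 and 20.3 CPM of H3K4me3, and the log2 ratio of 0.57 (SE 0.29) was not called (edgeR adjusted p = 0.052). On chromosome X, from 134555265 to 134559160, H3K9me3 held 55.1, 43.9 and 34.2 CPM, against 42.8, 27.8 and 29.9 CPM of H3K4me3. The libraries of the marks overlapped in that region of chromosome X and not in the other 2.

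The widest region picked in this way spanned 11751 bp of chromosome 1 from 23686304 to 23698054. It held 156, 133 and 109.9 CPM of H3K9me3, against 152, 169.7 and 157 CPM of H3K4me3, and the log2 ratio of -0.27 (SE 0.20) was not called (edgeR adjusted p = 0.188). Regions were named by position only, so whether this one lies at ZNF436, the gene knocked down, was not determined. The region did not keep this balance in the knockdown libraries. Its H3K9me3 was 205 ± 13.7 CPM in ZNF436 knockdown libraries, against 133 ± 23.2 CPM in control libraries, and its H3K4me3 was 10.2 ± 0.946 CPM in knockdown libraries, against 159.7 ± 8.99 CPM in control libraries (SD, n = 3 each). The region of chromosome 17 from 45265395 held 109 ± 12.9 CPM of H3K9me3 and 78.6 ± 5.73 CPM of H3K4me3 in the knockdown libraries, near its control values. A region of chromosome 19 from 57988081 to 57989134, picked in the same way, held 3.11 ± 1.68 CPM of H3K9me3 in knockdown libraries, against 9.91 ± 1.4 CPM in control libraries. By the rule of the top 20%, 94 of the 168 regions carried both marks in the control libraries and 80 (47.6%) in the knockdown libraries. Of the 77 not called, 23 did so in the knockdown libraries (29.9%), and their number by this rule in the control libraries was not counted. None of these differences from the knockdown libraries was tested here.

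The 30 regions with both marks that were higher in H3K4me3 had a median width of 2095 bp and median densities of 10.2 CPM per kb of H3K9me3 and 26.5 CPM per kb of H3K4me3. Their H3K4me3 was even, with a median ratio of the highest to the lowest library of 1.15. The rule for both marks returned 25 of the 30 in the knockdown libraries. Their levels follow in part from their selection and are given as a description.

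The class as a whole was partly stable between libraries. Set on the libraries of 1 replicate number at a time, 807, 1153 and 1041 regions carried both marks, and 242 to 292 were shared by any 2 of these sets. In all 6 libraries 187 regions did. In the knockdown libraries 627 regions carried both, of which 335 were shared with the 538, or 62.3% of the control set and 53.4% of the knockdown set. Many regions of the class lie close to a cut, and set on each replicate number alone most were not found again.

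The other marks placed the class between the others. The median H3K4me1 over regions with both marks was 1.95, 2.62 and 2.63 CPM per kb in the 3 H3K4me1 control libraries, against 0, 0 and 0 with H3K9me3 alone and 5.00, 4.79 and 4.70 with H3K4me3 alone. The median H3K27ac was 3.14, 4.08 and 4.0 CPM per kb with both marks, against 0, 0.319 and 0 with H3K9me3 alone and 6.75, 6.31 and 5.75 with H3K4me3 alone. Relative to H3K4me3 alone, regions with both marks had a log2 difference of -1.02 in H3K4me1 and of -0.75 in H3K27ac, on values with 0.01 added. In each library the class with both marks lay above H3K9me3 alone and below H3K4me3 alone. The classes were compared within the same 3 libraries of a mark, so a permutation test of 3 against 3 does not apply and these differences were not tested. The difference from H3K4me3 alone turned to 1.71 and 1.53 when presence was cut at the top 10%, which left 56 regions with both marks. The order against H3K9me3 alone did not turn in any alternative run.

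**Figure D5:**
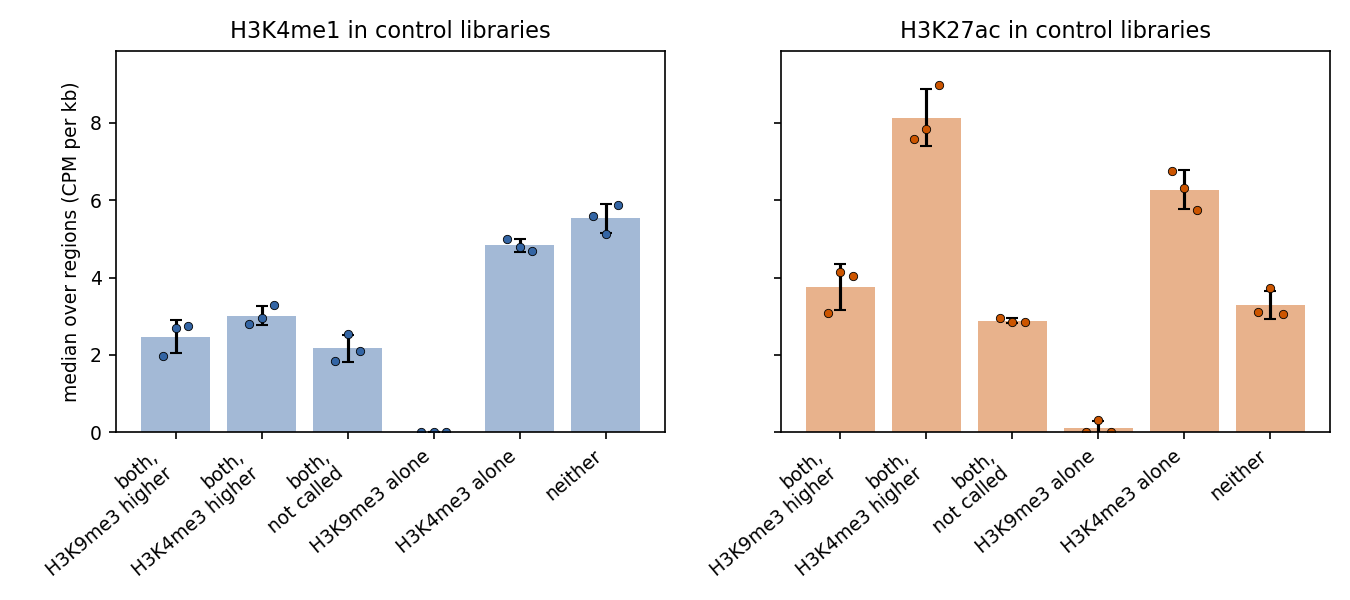
Median H3K4me1 (left) and H3K27ac (right) in CPM per kb over regions with both marks, split by the edgeR call, and over regions with H3K9me3 alone, H3K4me3 alone and neither. Bars are means of 3 control libraries, error bars SD and points libraries; H3K9me3 alone stands at or near 0 in both, and regions with both marks stand above it.

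Split by the call, the median H3K27ac was 3.76 ± 0.592 CPM per kb in regions with both marks that were higher in H3K9me3, 8.13 ± 0.736 CPM per kb in those higher in H3K4me3 and 2.89 ± 0.0562 CPM per kb in those not called. The median H3K4me1 was 2.47 ± 0.423, 3.01 ± 0.249 and 2.17 ± 0.360 CPM per kb in the same 3 sets. Regions with both marks that were higher in H3K4me3 were in the top 20% of H3K27ac in 19 of 30 cases, against 8 of 44 for those not called. In those higher in H3K4me3, H3K27ac was above the 6.27 ± 0.501 CPM per kb of regions with H3K4me3 alone. Their H3K4me1 was below the 4.83 ± 0.156 CPM per kb of regions with H3K4me3 alone. These sets were cut from the marks compared and their differences were not tested.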

How the data were processed

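CUT&Tag libraries were grouped by mark, condition and replicate number from their titles. The deposited files give raw counts per region, not normalized by the authors, over 1 list of regions. Per the submitters' processing notes, the build was hg19 and the tools were deepTools 3.5.4, bedtools 2.30.0 and Bowtie2 2.4.5, with no role given; read filters are not given in the sources used here. Between 60.2% and 63.9% of counts above 0 were even in the 6 libraries, as when both mates of each pair are counted.

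The 3 H3K9me3 and 3 H3K4me3 control libraries were tested with edgeR 4.0.16 (R 4.3.3): filterByExpr, library totals without further scaling, and the robust quasi-likelihood test with mark as the only term, Benjamini-Hochberg adjusted p under 0.05. TMM and RLE assume that most regions are alike, which opposing marks do not meet. CPM uses library totals. The SE is the log2 ratio over the square root of F. Chromosome Y, with 104 listed regions of which 6 carried both marks, was left out of chromosome comparisons. In simulated counts over 52245 regions, 18 of 96 changes of log2 1 and 45 of 91 of log2 2 were called, and 3 of 52058 unchanged regions, so small differences were mostly not detectable in that setting.

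Named regions were the 8 with the smallest p per direction, the 12 ranking highest in both marks in all 6 libraries, the 5 longest runs and the widest of each class, merged within 10 kb. For the 8 per direction, every library of the higher mark had to lie above every library of the other in CPM. The members, rules and lists were chosen with earlier results of these data known. No pair of libraries of a mark agreed within sampling noise (chi-square per degree of freedom 3.62 to 8.03). Alternatives were TMM, RLE, DESeq2 1.42.0, limma-voom (limma 3.58.1), other filters, thinning, halved counts, a minimum log2 ratio, other cuts for presence, the 100 highest regions left out, a replicate block and each library left out. Gene lists, cell type markers and sequences need an hg19 annotation or genome, which was not used here.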

Additional observations from a re-analysis of the deposited data

How the results depend on the processing

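Of 327 alternative values, 296 kept their direction and side of the threshold, or stayed within 1.5 times for counts, and 14 reversed. The count of regions higher in H3K9me3, 34763, was 55634 without a filter, 8713 with 30 reads required and 18959 with H3K4me3 thinned. RLE, which shifted the median log2 ratio by 2.38, gave 38187 higher in H3K9me3 and 11761 higher in H3K4me3, and TMM, with a shift of 0.54, gave 35278 and 15412. DESeq2 gave 34838 and 16554, limma-voom 34457 and 15574. Leaving out each library gave 29059 to 36354 and 15328 to 17394, and left 10 chromosomes with a larger share of H3K9me3 each time.

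The 538 regions with both marks became 56 at the top 10%, 2773 at the top 30%, 187 when required in every library, 3413 on CPM not divided by width and, in an alternative added after seeing the data, 168 above the mean density. Leaving out a library gave 510 to 653. The 100 highest regions left out (added) gave 498. At the top 10% the difference between both marks and H3K4me3 alone reversed to 1.71 for H3K4me1 and 1.53 for H3K27ac; the cause was not tested.

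TMM raised the log2 ratio of all 23 chromosomes by nearly the same amount, 0.53, and this shift alone sets which ones changed sign, to 0.0045 (3), 0.31 (5), 0.36 (6), 0.32 (9), 0.33 (13), 0.19 (14) and 0.10 (16). Without the 100 highest regions they reversed to -0.33 (1), 0.24 (5), 0.35 (13), 0.088 (14) and -0.10 (19).

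With the replicate number as a block, 34070 and 15102 regions and 10 chromosomes were called higher in H3K9me3, H3K4me3 and H3K9me3. Same-numbered libraries of the marks did not deviate together (correlations -0.02, -0.02 and 0.02). Few listed regions hold both marks, so this cannot tell whether equal numbers stand for the same culture. H3K9me3 libraries are shallower, and an H3K9me3 level under a few CPM rests on few reads.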

Other observations

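Regions with neither mark, 92484 of the list, were in the top 20% by H3K4me1 more often than all regions, and by H3K27ac about as often. Their median H3K4me1 was 5.60, 5.13 and 5.87 CPM per kb in the control libraries, above the 5.00, 4.79 and 4.70 CPM per kb of regions with H3K4me3 alone in every library. Their median H3K27ac was 3.11, 3.72 and 3.06 CPM per kb, below the 6.75, 6.31 and 5.75 CPM per kb of regions with H3K4me3 alone. Over all regions the medians were 3.54 ± 0.165 CPM per kb of H3K4me1 and 2.79 ± 0.301 CPM per kb of H3K27ac. In the class with neither mark 23073 regions (24.9%) were in the top 20% by H3K4me1 and 17341 (18.8%) by H3K27ac, where 20% of all regions are. No read of H3K9me3 fell in 21.3% of them and no read of H3K4me3 in 27.7%.

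The widest region with neither mark spanned 14092 bp of chromosome 10, from 80886009 to 80900100. It held 3.11, 7.46 and 6.55 CPM of H3K9me3, against 4.35, 2.51 and 4.78 CPM of H3K4me3, and the log2 ratio of 0.56 (SE 0.59) was not called (edgeR adjusted p = 0.353). In the same cells it carried 256 ± 36.8 CPM of H3K4me1 and 201 ± 37.9 CPM of H3K27ac (SD, n = 3 each).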
